A study of Mus musculus with 4 samples.

Results

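The members described here are 55 genes that encode transcription factors known to pattern hypothalamic neurons, out of 31053 genes in the count matrix. They were taken by gene symbol from a written list, a rule that uses no measured value although the list was drawn up with earlier results of these data known, and all 55 were found. Nuclei came from the mediobasal hypothalamus, the base of the hypothalamus around the third ventricle, of wild-type mice with free access to chow. One group was given insulin (Insulin, 2 libraries) and the other saline (Saline, 2 libraries). The labels give no dose, time, sex or age, and do not say whether a library held 1 mouse or several.

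Transcription factors of the homeobox, LIM, T-box, forkhead, Sox and basic helix-loop-helix families divide the developing hypothalamus into territories and then set which neurons arise there. Many stay on in the adult, where they hold a neuron to its peptide and transmitter. In the arcuate nucleus they are known for maintaining the neurons that sense insulin and leptin and control feeding.

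Values are counts of unique molecular identifiers (UMIs, one per captured RNA molecule), summed over the nuclei of a library and given as CPM, each gene's share of all UMIs of the same nuclei scaled to the usual fixed total. The 4 libraries held 8125 to 9386 annotated nuclei and 61130461 to 69239777 UMIs, with medians of 5501 to 7090 UMIs per nucleus. The deposited table names 2 runs, 230 and 232, without saying what a run is, and each held an Insulin and a Saline library. Runs and sexes coincided: Xist, which marks female nuclei, had 1713 CPM in the Insulin and 1623 CPM in the Saline library of run 232, and under 1 CPM in both libraries of run 230. A term for the run therefore takes up both, and they cannot be told apart. Of 36205 distinct barcode sequences, 318 occurred in 2 libraries. Cell types and neuron populations are those of the depositors' annotation. It gave 23261 neurons in 37 populations, of which 35 had at least 10 nuclei in every library. M2.Hdc had 2 nuclei and M13.Irx5 had 9 in the Saline library of run 232.

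Nuclei annotated Endothelial went against their markers, and many members depend on them. Those annotated Mural Cell carried endothelial markers beside mural ones. Nuclei annotated Endothelial had the endothelial markers Cldn5 at 1.69 ± 1.13 CPM and Slco1a4 at 0.822 ± 0.549 CPM (SD, n = 4 libraries), while Flt1 was at 279 ± 40.6 CPM. All 4 listed endothelial markers summed to 285 CPM there. The same nuclei had Col23a1, a marker listed here for ependymal cells and tanycytes, at 2423 ± 264 CPM. The 5 markers of that list summed to 2539 CPM, so the sum was nearly all Col23a1 and the others add little. Nuclei annotated Mural Cell had Cldn5 at 538 ± 106 CPM and Slco1a4 at 1011 ± 238 CPM. In them the endothelial list summed to 3365 CPM and the mural list to 2457 CPM. Both types are called by their annotated names below, as labels only.

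Neurons were the cell type with the highest CPM for 18 of the 55 members, and another type led for the other 37. No minimum of UMIs was set for this, and some of the 37 rest on very few. Lhx8 led in Mural Cell on 1 UMI, Hmx3 in Mural Cell on 4, Foxa1 in ependymocytes on 4 and Nhlh2 in Micro on 6. The 18 included Sim1, Otp, Isl1, Nr5a1 and Lhx9, and also Dlx1, Dlx2, Dlx5 and Dlx6. Neuron nuclei were the deepest, with a median of 8445 UMIs against 2354 in oligodendrocytes and 3148 in astrocytes, so CPM compares shares of each type's RNA. These are descriptions over 4 libraries, with no test.

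**Figure D1:**
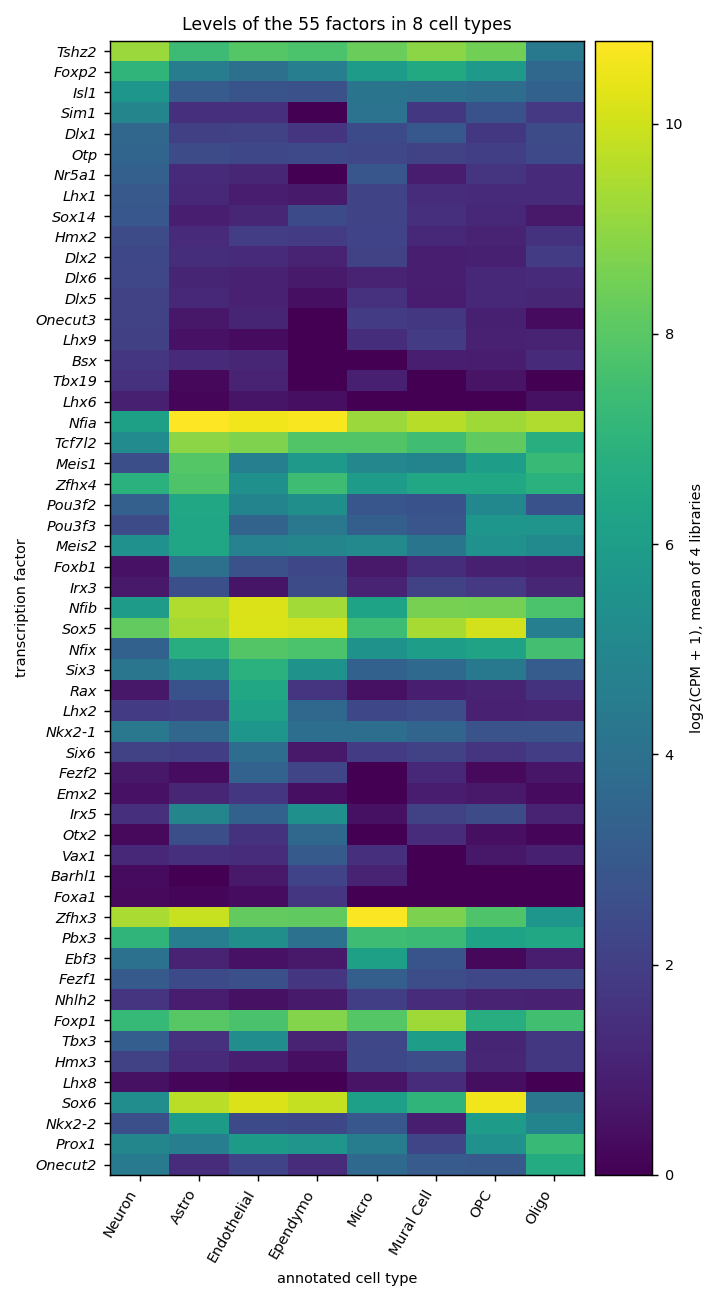
Level of each factor (rows) in the 8 annotated cell types (columns), as log2(CPM + 1) of the mean of 4 libraries, with rows grouped by the type that is highest. Neurons lead for 18 members and the nuclei annotated Endothelial for 10, among them Rax, Lhx2, Six3 and Six6.

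In the nuclei annotated Endothelial, 10 members reached their highest level. Rax, a homeobox factor of the eye field and of tanycytes, was at 84.4 ± 9.41 CPM there and at 0.603 ± 0.434 CPM in neurons (SD, n = 4). Lhx2, a LIM factor of the same lineages, was at 71.5 ± 12.7 CPM against 2.65 ± 0.311 CPM in neurons. Six3, which keeps anterior forebrain identity, stood at 117 ± 16.9 CPM there and 17.9 ± 6.34 CPM in neurons. Nkx2-1, the factor that defines the tuberal hypothalamus, was at 50.1 ± 15.3 CPM. For Rax, Lhx2 and Six3 the lowest library of these nuclei (77.0, 63.4 and 100.4 CPM) exceeded the highest library of neurons (1.25, 2.92 and 23.9 CPM). Glial types led for others. Nkx2-2, which drives the ventral tube and the oligodendrocyte lineage, was highest in oligodendrocyte precursors (OPC) at 61.0 ± 11.7 CPM and nearly as high in astrocytes at 58.0 ± 9.79 CPM. Sox6, a SoxD factor, reached 1487 ± 354 CPM in OPC. Onecut2, a cut-homeobox factor, was at 99.9 ± 17.0 CPM and Prox1 at 152 ± 41.7 CPM in oligodendrocytes. Astrocytes had the highest Nfia, a factor that starts gliogenesis, at 1767 ± 184 CPM, and the highest Meis1 at 243 ± 39.5 CPM. Foxb1, known from the mammillary body, was at 14.96 ± 1.52 CPM in astrocytes. Nuclei annotated Micro had Ebf3 at 68.3 ± 24.3 CPM, above every other type on the mean. They also held Snap25, a neuron marker, at 360 ± 100.2 CPM against 707 ± 19.97 CPM in neurons, and the part of neuron RNA in the Ebf3 value was not tested. Those annotated Mural Cell had Tbx3 at 65.8 ± 22.8 CPM.

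Within neurons, the leading population of a member is the one with the highest mean CPM over the 4 libraries among the 35. It is called apart where its lowest library exceeds the highest library of the next population. Of the 55 members, 50 had at least 20 UMIs in their leading population and 15 of these stood apart, which is a description with no test. Over all 12057 genes with as many UMIs, 9.12% stood apart. The leaders were spread over 25 populations. Some populations carry a member in their name (M8.Nr5a1, M9.Fezf1, M10.Sim1|Trh, M13.Irx5, M21.Nfix, M23.Sim1|Pou3f2, M37.Tbx19), and all genes of these nuclei may have entered the clustering, so a member leading there is no independent finding.

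**Figure D2:**
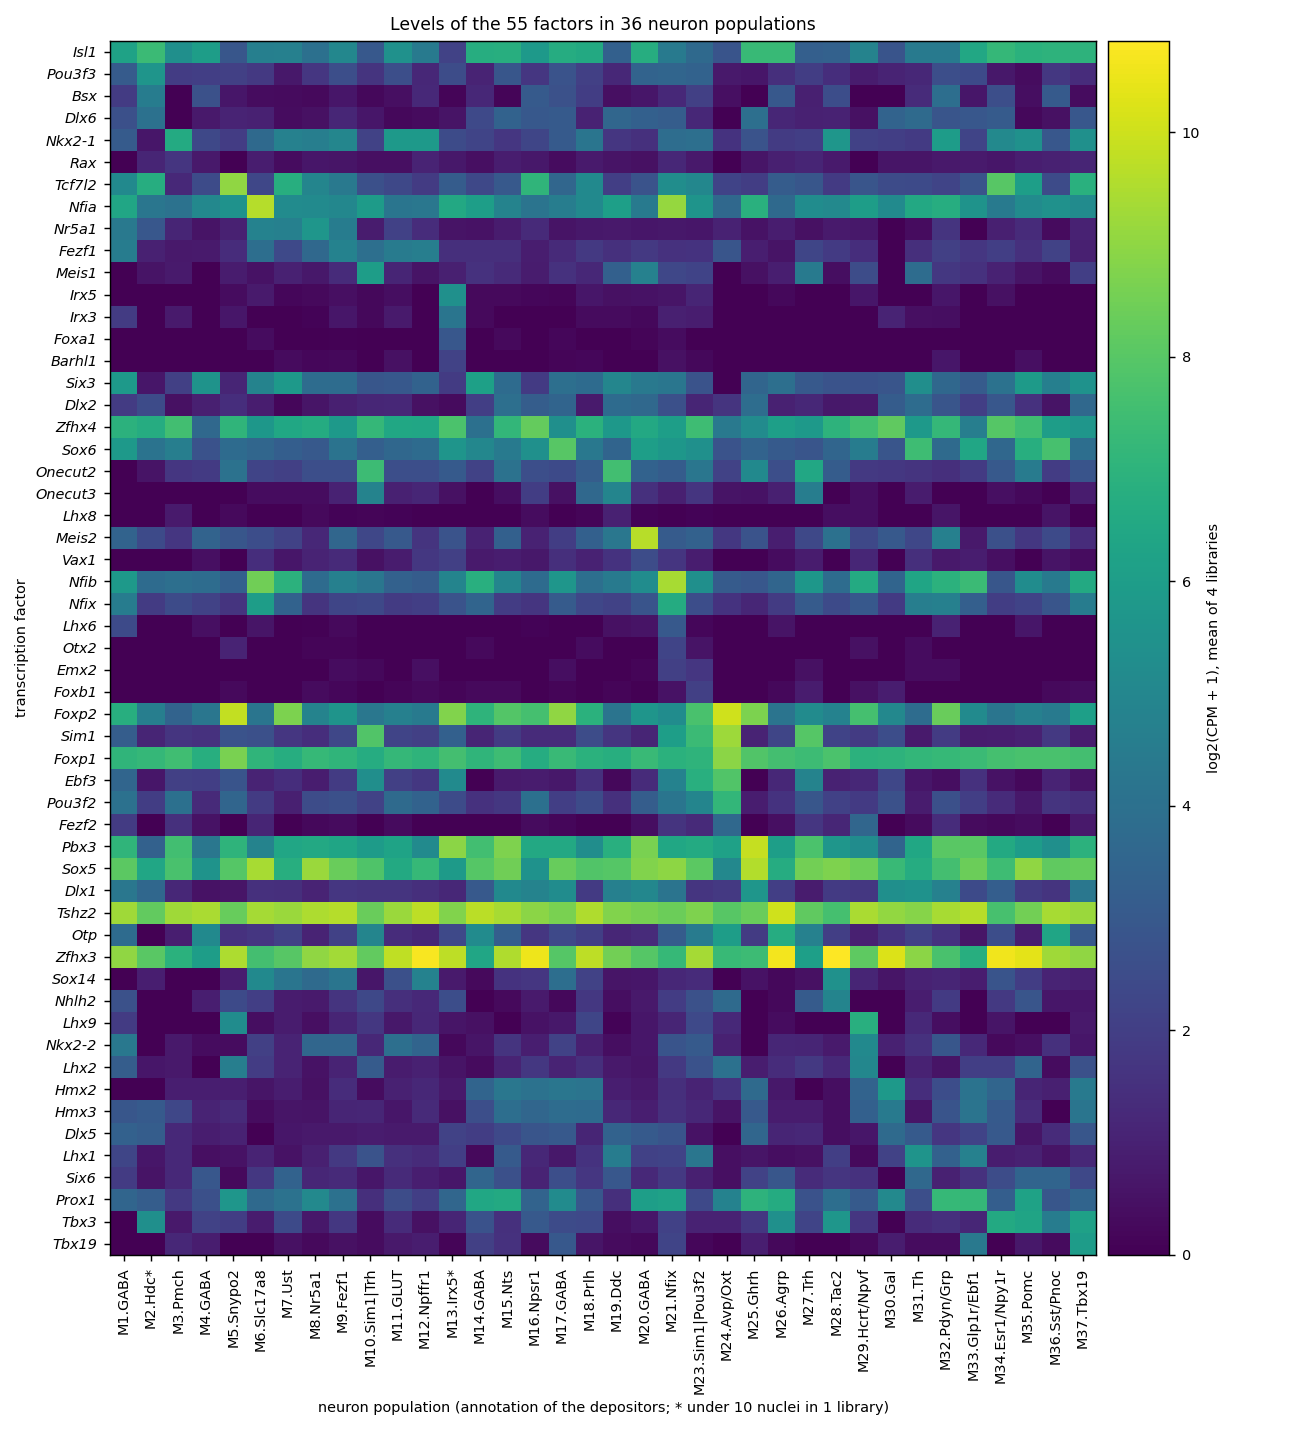
Level of each factor (rows) in 36 of the 37 neuron populations (columns), as log2(CPM + 1) of the mean of 4 libraries, with rows ordered by the shown population that is highest. Meis2 is brightest in M20.GABA (817 CPM), while Zfhx3 and Tshz2 are bright across most columns.

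Factors of the arcuate nucleus and the surrounding tuberal region marked several feeding populations. Isl1, a LIM factor needed for Pomc expression, had 154 ± 16.8 CPM in M26.Agrp, the neurons that drive feeding, and the same mean in M25.Ghrh, so their order is not resolved. Otp, a homeobox factor of neuroendocrine neurons, also led in M26.Agrp, at 103 ± 16.9 CPM, with ranges that overlapped M36.Sst/Pnoc at 80.9 CPM. Tbx3, a T-box factor that maintains Pomc neuron identity, was at 94.1 ± 6.01 CPM in M34.Esr1/Npy1r and at 79.6 CPM in M35.Pomc. The lowest M34 library, at 88.3 CPM, lay just under the highest M35 library, at 88.6 CPM. Bsx, a homeobox factor required for normal Agrp and Npy levels, led in M32.Pdyn/Grp at 14.0 ± 8.52 CPM, with libraries between 2.06 and 22.3 CPM. Nkx2-1 led in M3.Pmch, the melanin-concentrating hormone neurons, at 95.6 ± 35.8 CPM.

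Six3 led in M14.GABA (69.8 ± 13.8 CPM) and its relative Six6 in M31.Th (11.5 ± 5.29 CPM), neither apart from the next population. Prox1, a prospero homeobox factor, was as high in M32.Pdyn/Grp (150.3 ± 18.5 CPM) as in M33.Glp1r/Ebf1 (144 CPM). Nhlh2, a helix-loop-helix factor of neuropeptide neurons, led in M28.Tac2 at 28.7 ± 14.9 CPM. Hmx2 and Hmx3, homeobox paralogs required for Ghrh neurons in mouse development, both led in M30.Gal, at 54.97 ± 12.1 and 20.2 ± 10.5 CPM. Hmx2 stood apart there and Hmx3 did not. Vax1, a ventral forebrain factor, led in M20.GABA at 4.66 ± 1.47 CPM, and Otx2, which sets anterior head identity, in M21.Nfix at 3.68 ± 1.28 CPM. Rax had 3 UMIs in its leading population and no leader is given for it.

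Among factors of the ventromedial nucleus, the glutamatergic nucleus beside the arcuate, Nr5a1 (SF-1), its defining nuclear receptor, had 50.4 ± 8.23 CPM in M8.Nr5a1 and 26.5 CPM in M6.Slc17a8. Of all neuron UMIs of Nr5a1, 56.9% lay in M8.Nr5a1. Fezf1, a zinc-finger repressor of the same nucleus, was at 26.8 ± 3.51 CPM in M9.Fezf1 and overlapped M12.Npffr1 at 23.8 CPM. Sox14, a SoxB factor, led outside the populations named for these factors, in M28.Tac2, at 43.8 ± 3.61 CPM. Its lowest library there, 41.63 CPM, was just above the highest of M6.Slc17a8, 41.60 CPM. Nkx2-2 led in M29.Hcrt/Npvf at 34.5 ± 13.5 CPM. The largest shares of neuron Nkx2-2 UMIs were in M8.Nr5a1 (21.1%) and M9.Fezf1 (19.1%). Fezf2 had 11.6 ± 3.67 CPM in M24.Avp/Oxt and 10.8 CPM in M29.Hcrt/Npvf. Tbx19 (Tpit), known from pituitary corticotrophs, was at 61.4 ± 11.6 CPM in M37.Tbx19 and 19.4 CPM in M33.Glp1r/Ebf1.

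The paraventricular and supraoptic nuclei hold the vasopressin and oxytocin neurons, and Sim1 with its target Pou3f2 is required for them in mouse. Sim1 was at 592 ± 41.8 CPM in M24.Avp/Oxt, with libraries between 543 and 641 CPM, against 245 CPM in M27.Trh. Pou3f2 (Brn2) was at 143 ± 30.4 CPM in M24.Avp/Oxt and 29.6 CPM in M23.Sim1|Pou3f2. Both stood apart. Because M23.Sim1|Pou3f2 held 1698 nuclei and M24.Avp/Oxt 153, M23.Sim1|Pou3f2 held 40.8% of all neuron Sim1 UMIs and the vasopressin and oxytocin population 15.8%. Ebf3, an EBF-family factor of neuron differentiation, had the same leader, at 236 ± 56.6 CPM, against 112 CPM in M23.Sim1|Pou3f2. Otp is described above. Pou3f3 (Brn1) was nearly even between M21.Nfix (10.5 ± 1.22 CPM) and M20.GABA (9.90 CPM).

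Of the mammillary and lateral hypothalamic factors, Lhx9, a LIM factor that promotes hypocretin neurons, had 114 ± 16.5 CPM in M29.Hcrt/Npvf. That population held 54.2% of neuron Lhx9 UMIs, and the next, M5.Snypo2, was at 37.7 CPM. Lhx2 led in the same population at 31.1 ± 8.23 CPM. Lhx1, needed by the suprachiasmatic clock, was at 46.9 ± 16.7 CPM in M31.Th and did not stand apart there. Lhx6 and Lhx8, factors of interneurons and cholinergic neurons, were rare, with 204 and 90 UMIs in all neurons. The population that led for both is not reported here. After it, M21.Nfix held 25.5% of the Lhx6 UMIs and M19.Ddc 8.89% of the Lhx8 UMIs.

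Irx3, Irx5, Foxa1 and Barhl1 came mostly from M13.Irx5, which is outside the 35. Of 407 neuron UMIs of Irx5, an Iroquois homeobox factor, 82.3% were in M13.Irx5, as were 58.9% of 146 for its neighbour Irx3, 84.1% of 44 for the forkhead factor Foxa1 and 57.1% of 56 for Barhl1, a factor of mammillary and subthalamic neurons. Among the 35, Irx5 had 20 UMIs in its leading population, M23.Sim1|Pou3f2 (1.18 ± 0.865 CPM), and the other 3 had too few to name one. In M13.Irx5, Irx5 was at 44.6 and 62.8 CPM in the Insulin libraries of runs 230 and 232, against 39.9 and 21.7 CPM in the Saline libraries. The last value rests on 2 UMIs in 9 nuclei. Foxb1 led in M23.Sim1|Pou3f2 at 3.08 ± 3.86 CPM and Emx2, a homeobox factor of the cortex, in M21.Nfix at 3.10 ± 2.52 CPM, with an SD near or above the mean for both.

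Of the GABA programme, the Dlx factors peaked together in a few populations and Meis2 in another. Dlx1 and Dlx2, homeobox activators of forebrain GABA neurons, led in M25.Ghrh (49.7 ± 7.99 CPM) and M15.Nts (14.5 ± 5.03 CPM), and Dlx6 led in M25.Ghrh (14.3 ± 5.30 CPM). Dlx5 had 15 UMIs in its leader, below the minimum. None of the 4 stood apart. Meis2, a TALE homeobox cofactor that is also high in striatal neurons, was at 715 and 732 CPM in the Insulin libraries of M20.GABA and 979 and 841 CPM in the Saline libraries. That population stood apart. M20.GABA held 79.7% of all neuron Meis2 UMIs. A Meis2 UMI was found in 70.2% to 78.1% of M20.GABA nuclei (median 8270 UMIs) and in 0% to 5.56% of M32.Pdyn/Grp nuclei (median 5636.5 UMIs). In M20.GABA the 4 listed markers of striatum and amygdala summed to 33.4 to 57.8 CPM, rank 16 of 37 populations. Of these, Drd1 had 23 UMIs, Ppp1r1b 4 and Adora2a 4 over the 4 libraries, and Rarb 345.

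Broad identity factors act across many neuron types, and 5 of the 16 had a leader that stood apart besides Meis2. Pbx3, a TALE cofactor of Meis proteins, was at 940.4 ± 38.8 CPM in M25.Ghrh and 417 CPM in M15.Nts. Tcf7l2, the nuclear effector of Wnt signalling, was at 523 ± 34.2 CPM in M5.Snypo2 and 259.6 CPM in M34.Esr1/Npy1r. Nfia led in M6.Slc17a8 (792 ± 91.1 CPM) and its relatives Nfib (676 ± 71.3 CPM) and Nfix (99.0 ± 9.71 CPM) in M21.Nfix. These were the 5. Foxp2, a forkhead factor of neural circuits, was at 1063 ± 9.72 CPM in M24.Avp/Oxt, but M5.Snypo2 reached 1405 CPM in 1 library. Foxp1 had the same leader at 487 ± 72.1 CPM. Sox5 led in M25.Ghrh (764 ± 121 CPM) and Sox6 in M17.GABA (253 ± 88.5 CPM). Onecut2 and Onecut3 both led in M19.Ddc, at 188 ± 29.0 and 29.1 ± 4.73 CPM, with M10.Sim1|Trh close behind at 169 and 27.6 CPM. Meis1 led in M10.Sim1|Trh at 63.9 ± 49.5 CPM, with libraries between 22.7 and 132 CPM. Zfhx3, a zinc-finger homeobox factor of the circadian clock, was highest in M28.Tac2 (1803 ± 90.3 CPM), and Zfhx4 in M16.Npsr1 (306 ± 24.0 CPM). Tshz2, a teashirt zinc-finger factor, was highest in M26.Agrp at 1058 ± 139 CPM against a median of 576 CPM over populations.

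Members were also compared with each other over the 35 populations, by Pearson's r of log2(CPM + 1), the mean of 4 libraries. The points share libraries and depth, and r is given as a description. Over 1485 pairs the median r was 0.04, and 9 pairs exceeded 0.8. Sim1 and Ebf3 had the highest, 0.94. The 4 Dlx genes gave 6 of the 9, between 0.86 and 0.92, and the others were Nfib with Nfix (0.89) and Hmx2 with Hmx3 (0.88). Chromosome neighbours were alike with 1 exception. Dlx1 and Dlx2 lie 9426 bases apart on opposite strands (r 0.92), Dlx5 and Dlx6 9236 bases apart on opposite strands (r 0.92), and Hmx2 and Hmx3 3847 bases apart on 1 strand (r 0.88). For Irx3 and Irx5, 555557 bases apart, r was 0.17 over the 35 populations, which leave out M13.Irx5. Annotation has antisense genes over 28 members, Dlx1 and Dlx6 among them, and genes on the same strand over 13. The sources used here do not say whether counting used strand or how such reads were assigned, so values of these members may include reads of their partners.

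**Figure D3:**
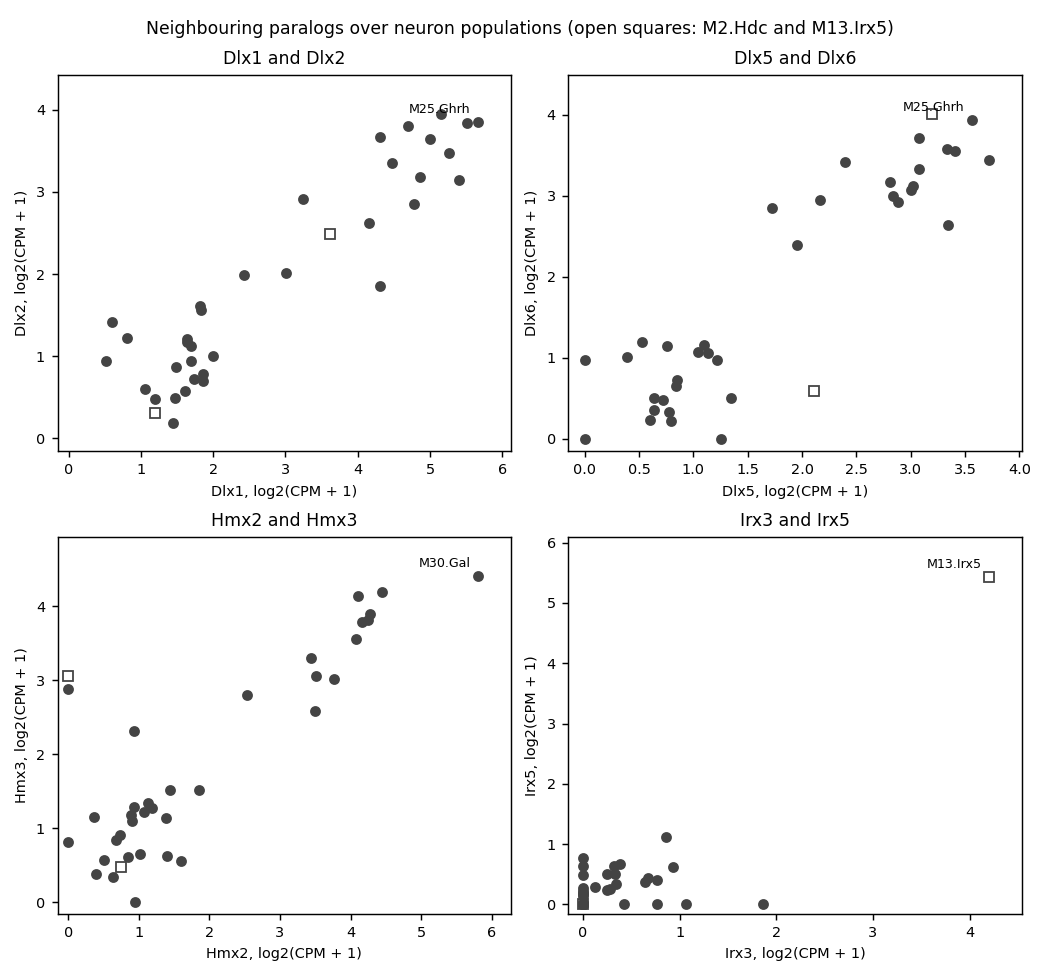
Each point is 1 neuron population and the axes give log2(CPM + 1), mean of 4 libraries, for the members of a neighbouring pair; open squares mark the populations outside the 35. Dlx1 and Dlx2, Dlx5 and Dlx6, and Hmx2 and Hmx3 rise together, while Irx3 and Irx5 share a single high point, M13.Irx5.

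Start-site sequences of 6 genes from the most alike pairs are shown so that neighbouring and distant partners can be compared. Each window runs from 250 bases before to 50 after a RefSeq transcript start (GRCm38.p6), 5′ to 3′ on the gene's strand, with CG dinucleotides in capitals. The windows are Dlx1 (chr2:71529195-71529494, plus strand), Dlx2 (chr2:71546705-71547004, minus strand), Hmx2 (chr7:131548507-131548806, plus strand), Hmx3 (chr7:131542713-131543012, plus strand), Sim1 (chr10:50895401-50895700, plus strand) and Ebf3 (chr7:137314396-137314695, minus strand).
Dlx1: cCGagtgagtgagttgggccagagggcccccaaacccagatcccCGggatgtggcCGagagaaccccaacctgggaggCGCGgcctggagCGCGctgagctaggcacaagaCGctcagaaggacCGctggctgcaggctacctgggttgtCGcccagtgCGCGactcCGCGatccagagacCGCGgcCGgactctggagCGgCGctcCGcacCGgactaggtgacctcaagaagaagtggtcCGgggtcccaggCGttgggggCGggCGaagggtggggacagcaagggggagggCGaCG
Dlx2: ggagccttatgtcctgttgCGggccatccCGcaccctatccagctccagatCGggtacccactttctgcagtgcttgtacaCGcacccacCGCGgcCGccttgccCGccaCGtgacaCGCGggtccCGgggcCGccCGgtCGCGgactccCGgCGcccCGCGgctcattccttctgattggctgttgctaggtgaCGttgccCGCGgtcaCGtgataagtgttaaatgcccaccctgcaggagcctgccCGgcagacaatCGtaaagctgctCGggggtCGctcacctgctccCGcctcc
Hmx2: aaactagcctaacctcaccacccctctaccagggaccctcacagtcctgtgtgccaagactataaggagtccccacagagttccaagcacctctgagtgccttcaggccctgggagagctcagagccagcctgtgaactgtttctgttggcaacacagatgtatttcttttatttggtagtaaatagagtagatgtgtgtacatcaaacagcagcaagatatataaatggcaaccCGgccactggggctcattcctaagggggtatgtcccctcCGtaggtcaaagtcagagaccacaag
Hmx3: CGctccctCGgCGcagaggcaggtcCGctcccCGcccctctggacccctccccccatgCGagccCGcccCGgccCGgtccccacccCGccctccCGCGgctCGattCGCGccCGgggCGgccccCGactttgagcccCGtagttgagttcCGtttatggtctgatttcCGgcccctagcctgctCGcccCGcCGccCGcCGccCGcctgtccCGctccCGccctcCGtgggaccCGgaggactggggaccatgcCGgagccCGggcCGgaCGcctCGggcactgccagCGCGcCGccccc
Sim1: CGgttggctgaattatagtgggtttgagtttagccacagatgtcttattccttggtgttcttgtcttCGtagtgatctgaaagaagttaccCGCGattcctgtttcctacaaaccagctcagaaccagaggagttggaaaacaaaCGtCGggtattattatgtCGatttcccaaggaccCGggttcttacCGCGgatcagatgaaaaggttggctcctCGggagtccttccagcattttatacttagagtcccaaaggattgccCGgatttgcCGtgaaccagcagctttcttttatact
Ebf3: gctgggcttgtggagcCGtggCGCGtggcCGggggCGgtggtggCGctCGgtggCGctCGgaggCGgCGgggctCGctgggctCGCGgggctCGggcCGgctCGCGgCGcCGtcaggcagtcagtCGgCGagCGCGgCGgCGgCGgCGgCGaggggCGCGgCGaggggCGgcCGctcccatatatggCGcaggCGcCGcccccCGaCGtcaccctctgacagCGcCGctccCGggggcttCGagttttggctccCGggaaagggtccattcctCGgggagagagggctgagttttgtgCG

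Dlx1 and Dlx2 had 27 and 29 CG dinucleotides in these windows. Hmx3 and Hmx2 differed, with 39 and 2, as did Ebf3 and Sim1, with 46 and 13. Of the RefSeq starts of Hmx2, the one nearest to its annotated gene start is shown. The Dlx1 and Sim1 windows begin inside the annotated genes. RefSeq windows were found for 42 of the 55 members, 62 windows in all. Their median was 14 CG dinucleotides, against 7 over all 32851 windows. The homeodomain motif TAATTA, searched on both strands, occurred in 11.3% of the members' windows and 5.29% of all windows. TGACAG, bound by TALE factors such as Meis2, was in 22.6% and 19.2%, and CAAGTG, bound by the NKX2 family, in 4.84% and 13.6%. The palindromic NFI motif was in 0 of 62 and 0.0365%. A window counts once per motif whatever the overlap, and a match is a description of the sequence only.

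Transmitter genes gave a further description of the members. Over the 35 populations, Slc17a6, the glutamate transporter, and Slc32a1, the GABA transporter, had r -0.79 with each other. The Dlx genes followed Slc32a1, with r between 0.72 for Dlx2 and 0.81 for Dlx6, and ran opposite to Slc17a6, between -0.59 and -0.67. Isl1 was next on the GABA side (0.49), ahead of Sox6 and Six6 (0.43 each). On the other side, Nhlh2 (0.68), Fezf1 (0.63) and Nr5a1 (0.51) followed Slc17a6 most closely. Meis2, despite its peak in M20.GABA, had r 0.29 with Slc32a1.

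The next question was whether Insulin and Saline libraries differed in the members. edgeR's quasi-likelihood test with the run as a block and Benjamini-Hochberg adjustment over all genes tested called 0 of 55 members in all nuclei, where 0.0% of 20976 genes were called. It also called 0 of 55 in neurons, where 0.0% of 20275 genes were called. At an unadjusted p under 0.05 there were 6 members in all nuclei and 11 in neurons, and DESeq2 called 0 members in either. The unadjusted counts are given without the share of all genes, so no excess is read from them. In neurons, 39 members were higher and 16 lower in Insulin libraries, with a median log2 difference of 0.10, against 0.01 over all genes tested. Both Insulin libraries lay above both Saline libraries for 10 members and below them for 7, while this held for 8.74% and 11.6% of all genes.

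Emx2 and Foxb1 had the highest log2 differences of the members at an unadjusted p under 0.05, were rare and came largely from 1 library. Emx2 was at 1.24 and 0.378 CPM in neurons of the Insulin libraries of runs 230 and 232, against 0.0829 and 0.0531 CPM in the Saline libraries (log2 3.49, SE 0.48, edgeR adjusted p = 0.286). Of its 97 UMIs, 50 lay in M23.Sim1|Pou3f2 of the Insulin library of run 230. Foxb1 was at 1.26 and 0.219 CPM, against 0.166 and 0.159 CPM in Saline neurons (log2 2.00, SE 0.55, edgeR adjusted p = 0.368), with 61 of 101 UMIs in that same population and library. The groups did not overlap for either gene. Without that library, in fits that drop the run block, the log2 difference was 0.39 for Foxb1 and 2.40 for Emx2. M23.Sim1|Pou3f2 made up 12.5% and 6.19% of neurons in the Insulin libraries, against 6.64% and 4.04% in the Saline libraries.

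Ebf3 was at 26.5 and 12.2 CPM in Insulin neurons and 16.5 and 6.37 CPM in Saline neurons, so the groups overlapped and the higher library of each run was the Insulin one (log2 0.80, SE 0.14, edgeR adjusted p = 0.343). Without the Insulin library of run 230 the difference was 0.05, in a fit that drops the run block and so takes in the difference between runs. Within runs 230 and 232, Insulin over Saline on the log2(CPM + 0.5) scale was 0.67 and 0.89. Fezf2 was at 1.07 and 0.755 CPM in Insulin neurons, against 0.298 and 0.442 CPM in Saline neurons (log2 1.29, SE 0.37, edgeR adjusted p = 0.394), from 141 UMIs in all. Irx5 was at 2.45 and 3.02 CPM in Insulin neurons, against 1.79 and 0.159 CPM in Saline neurons (log2 1.79, SE 0.64, edgeR adjusted p = 0.463). Irx3 was at 0.906 and 0.954 CPM, against 0.646 and 0.142 CPM in Saline neurons (log2 1.34, SE 0.49, edgeR adjusted p = 0.467). Both Irx genes were lowest in the Saline library of run 232, in which M13.Irx5, their main source, had 9 nuclei against 183 to 218 in the other libraries.

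Downward, Meis2 had the smallest p. It was at 33.1 and 28.5 CPM in neurons of the Insulin libraries, against 42.5 and 65.9 CPM in the Saline libraries (log2 -0.79, SE 0.18, edgeR adjusted p = 0.343). The groups did not overlap. Meis1, its paralog, was at 4.53 and 3.94 CPM in Insulin neurons, against 6.12 and 5.54 CPM in Saline neurons (log2 -0.47, SE 0.19, edgeR adjusted p = 0.506). Lhx9 was at 2.91 and 2.46 CPM, against 3.66 and 3.34 CPM in Saline neurons (log2 -0.39, SE 0.21, edgeR adjusted p = 0.632). Dlx6 was at 3.25 and 3.72 CPM, against 4.64 and 4.23 CPM in Saline neurons (log2 -0.36, SE 0.21, edgeR adjusted p = 0.655). All of these lay lower in both Insulin libraries, and none passed the threshold.

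**Figure D4:**
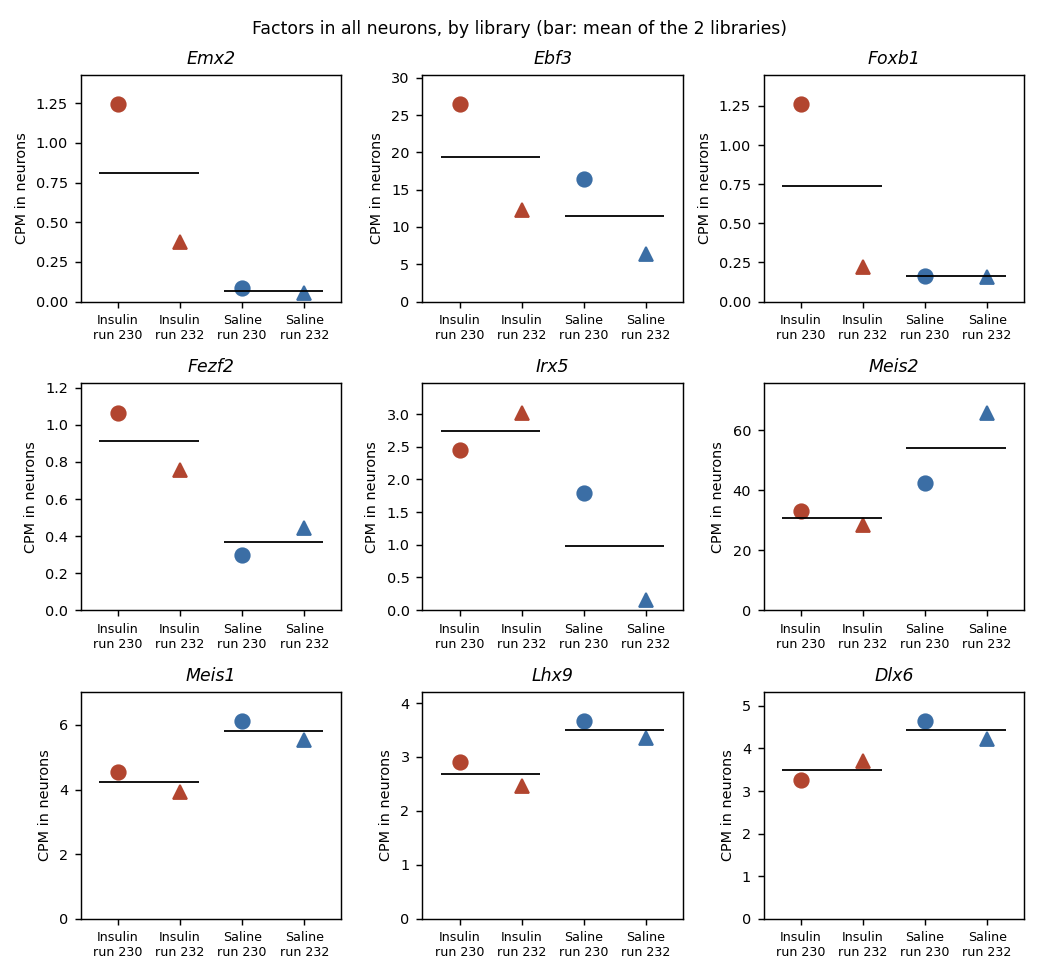
CPM in all neurons of each library for the 4 members with the smallest p in each direction and Irx5; circles are run 230, triangles run 232, red Insulin, blue Saline, and bars the mean of the 2 libraries of a group. Emx2 and Foxb1 are high in the Insulin library of run 230 (1.24 and 1.26 CPM), and Meis2 is highest in the Saline library of run 232 (65.9 CPM).

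Dlx1 (10.3 and 12.01 CPM in Insulin neurons, 10.3 and 11.1 CPM in Saline neurons) had a log2 difference of 0.05 with SE 0.15. Its partner Dlx2 was at 3.54 and 5.96 CPM in Insulin neurons and 2.52 and 4.41 CPM in Saline neurons, higher with Insulin within each run (log2 0.46, SE 0.20, edgeR adjusted p = 0.541). Dlx5 was at 2.97 and 4.11 CPM, against 2.09 and 3.68 CPM in Saline neurons, while its neighbour Dlx6 lay lower in both Insulin libraries. Hmx2 was at 3.48 and 5.65 CPM in Insulin neurons and 5.09 and 3.61 CPM in Saline neurons, and Hmx3 at 3.02 and 4.85 CPM against 2.75 and 2.88 CPM. Neighbours alike over populations did not all share an order of libraries.

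M20.GABA, the main source of Meis2, made up 4.13% and 3.27% of neurons in the Insulin libraries, against 3.80% and 6.42% in the Saline libraries. With each of the 35 populations given the same weight in every library, Meis2 was at 36.5 and 35.8 CPM in Insulin neurons and 50.5 and 53.8 CPM in Saline neurons. Its mean log2 difference, on the log2(CPM + 0.5) scale, was then -0.52, and it had been -0.77 with each library's own makeup. In run 230 the value was -0.46, and -0.36 with each library's own makeup, and in run 232 it was -0.58, and -1.19 with each library's own makeup. The M20.GABA share was lower with Insulin in run 232 alone. For Ebf3 the same calculation gave -0.34 in run 230, against 0.67 with each library's own makeup, and 0.89 in run 232 both ways. It gave 0.54 for Irx5, which had been 1.39 with M13.Irx5 included. The values with each library's own makeup cover all neurons, M2.Hdc and M13.Irx5 among them. M13.Irx5 held 10.2% of neuron Ebf3 UMIs and 82.3% of those of Irx5. The change between the 2 calculations therefore mixes equal weights with the loss of that population. All of these are values with no test.

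In the 7 non-neuronal cell types, edgeR's quasi-likelihood test with the run block called 0 of 148 member tests, and 0.0953% of all gene tests were called (0.0935% in astrocytes, 0.0349% in ependymocytes, 0.444% in OPC and 0.0% in the other types). At an unadjusted p under 0.05 there were 11, in 5 types, again without the share of all genes. The lowest p was for Meis2 in oligodendrocytes (log2 -1.04, SE 0.24, edgeR adjusted p = 0.989). A test of whether the Insulin difference in neurons differed from that in all other cells called 0 members (0.0% of 20462 genes). At an unadjusted p under 0.05 this test had 2 of 54 members, Zfhx3 and Pou3f3, and 310 of all 20462 genes.

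Within single neuron populations, 46 members were tested in at least 1 of the 35, from 3 to 35 members per population, giving 651 member tests. The 9 that passed the low-count filter in none were Fezf2, Otx2, Irx3, Irx5, Foxb1, Foxa1, Emx2, Barhl1 and Rax. edgeR with the run block called 9 member tests, 4 higher and 5 lower with Insulin, which is 1.38%, and 0.13% of all 359137 gene tests were called. A member with few UMIs in a population is tested only where some libraries have enough, so these shares are not read against each other. Without the run block, 0 member tests were called and 0.000835% of all gene tests, and DESeq2 with the block called 0 member tests. The fit with the block has 1 residual degree of freedom. By role, 8 calls were among the 386 tests of broad identity factors and 1 among the 30 of ventromedial factors. The 4 Meis2 calls also count under the GABA programme, which had 50 tests. The 38 tests of paraventricular factors, the 145 of arcuate factors and the 26 of mammillary and lateral factors gave 0 calls, with 5, 14 and 3 tests at an unadjusted p under 0.05. Broad identity factors had 62 such tests, the GABA programme 7 and ventromedial factors 2. These counts are given without the share of all genes.

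In M17.GABA, 0.603% of 11769 genes were called. Sox14 (chr9:99874106-99876170, minus strand, GRCm38) was at 28.0 and 17.3 CPM in the Insulin libraries of runs 230 and 232, against 8.48 and 2.08 CPM in the Saline libraries. Both Insulin libraries were above both Saline libraries (log2 2.03, SE 0.39, edgeR adjusted p = 0.000143). A Sox14 UMI was found in 15.8% and 8.91% of Insulin nuclei, against 5.71% and 1.13% of Saline nuclei. In its leading population, M28.Tac2, Sox14 was at 41.6 and 42.1 CPM in Insulin libraries and 42.4 and 49.2 CPM in Saline libraries (log2 -0.12, SE 0.30, edgeR adjusted p = 0.973). Tcf7l2 (chr19:55741820-55933654, plus strand) was at 15.3 and 17.9 CPM in M17.GABA of Insulin libraries, against 6.36 and 3.46 CPM in Saline libraries (log2 1.66, SE 0.42, edgeR adjusted p = 0.02). These levels are far below its peak in M5.Snypo2.

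In M16.Npsr1, where 0.295% of 11538 genes were called, a higher and a lower member were found. Sox6 (chr7:115470872-116038796, minus strand) was at 63.6 and 57.9 CPM in the Insulin libraries, against 28.4 and 20.1 CPM in the Saline libraries, without overlap (log2 1.26, SE 0.25, edgeR adjusted p = 0.00332). Foxp2 (chr6:14901349-15441977, plus strand) was at 119 and 193 CPM in the Insulin libraries and 183 and 284 CPM in the Saline libraries. Its groups overlapped, and the Insulin library was the lower one within each run (log2 -0.61, SE 0.16, edgeR adjusted p = 0.0393). In M20.GABA, with 0.0487% of 12325 genes called, Nfib (chr4:82290173-82705750, minus strand) was at 38.7 and 66.0 CPM in the Insulin libraries and 14.9 and 31.3 CPM in the Saline libraries, again without overlap (log2 1.18, SE 0.21, edgeR adjusted p = 0.0276).

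Meis2 (chr2:115863064-116065839, minus strand) passed downward in 4 of the 10 populations where it was tested, and its log2 difference was below 0 in 8 of the 10. Its level was low in all 4. The 10 fits share the same 4 libraries, so these counts are not read as a general decrease. In M18.Prlh and M32.Pdyn/Grp, Meis2 met the low-count filter through the Saline libraries alone, which builds in a lower value with Insulin. In M18.Prlh, where 0.032% of genes were called, it was at 0 and 1.72 CPM in the Insulin libraries, against 6.24 and 27.6 CPM in the Saline libraries (edgeR adjusted p = 0.00432). In M32.Pdyn/Grp, where 0.0444% of genes were called, it was at 3.46 and 0 CPM in the Insulin libraries, against 9.52 and 88.4 CPM in the Saline libraries (edgeR adjusted p = 6.04e-12). With so few UMIs, the ratio of pooled CPM is given in place of the fitted fold. It was 0.0753 in M18.Prlh (4 Insulin and 49 Saline UMIs) and 0.0444 in M32.Pdyn/Grp (3 and 59 UMIs). The 95% counting intervals were 0.0197 to 0.205 and 0.0089 to 0.136. They cover counting error only and treat each UMI as an independent draw. As many Saline UMIs sat in single nuclei, described below, the intervals are too narrow.

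The other Meis2 calls were in M19.Ddc and M23.Sim1|Pou3f2. In M19.Ddc, where 0.481% of genes were called, Meis2 was at 13.1 and 8.55 CPM in the Insulin libraries, against 36.3 and 15.6 CPM in the Saline libraries (log2 -1.28, SE 0.31, edgeR adjusted p = 0.0247). In M23.Sim1|Pou3f2, with 0.0293% called, it was at 1.87 and 5.22 CPM in the Insulin libraries, against 11.8 and 18.6 CPM in the Saline libraries (log2 -2.23, SE 0.38, edgeR adjusted p = 0.0303). In M20.GABA, which holds most Meis2 RNA, it did not pass (log2 -0.35, edgeR adjusted p = 0.341).

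In M32.Pdyn/Grp and M18.Prlh, single nuclei carried much of the Saline Meis2 values. In M32.Pdyn/Grp of the Saline library of run 232, 35 of 43 Meis2 UMIs were in 1 nucleus, and in the Saline library of run 230, 11 of 16. In M18.Prlh the richest nuclei held 16 of 33 UMIs in the Saline library of run 232 and 13 of 16 in that of run 230. Over the 4 populations, between 0% and 6.05% of nuclei in a library had a Meis2 UMI. A nucleus of M20.GABA held up to 40 Meis2 UMIs, and whether the rich nuclei elsewhere belong to that population was not tested.

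**Figure D5:**
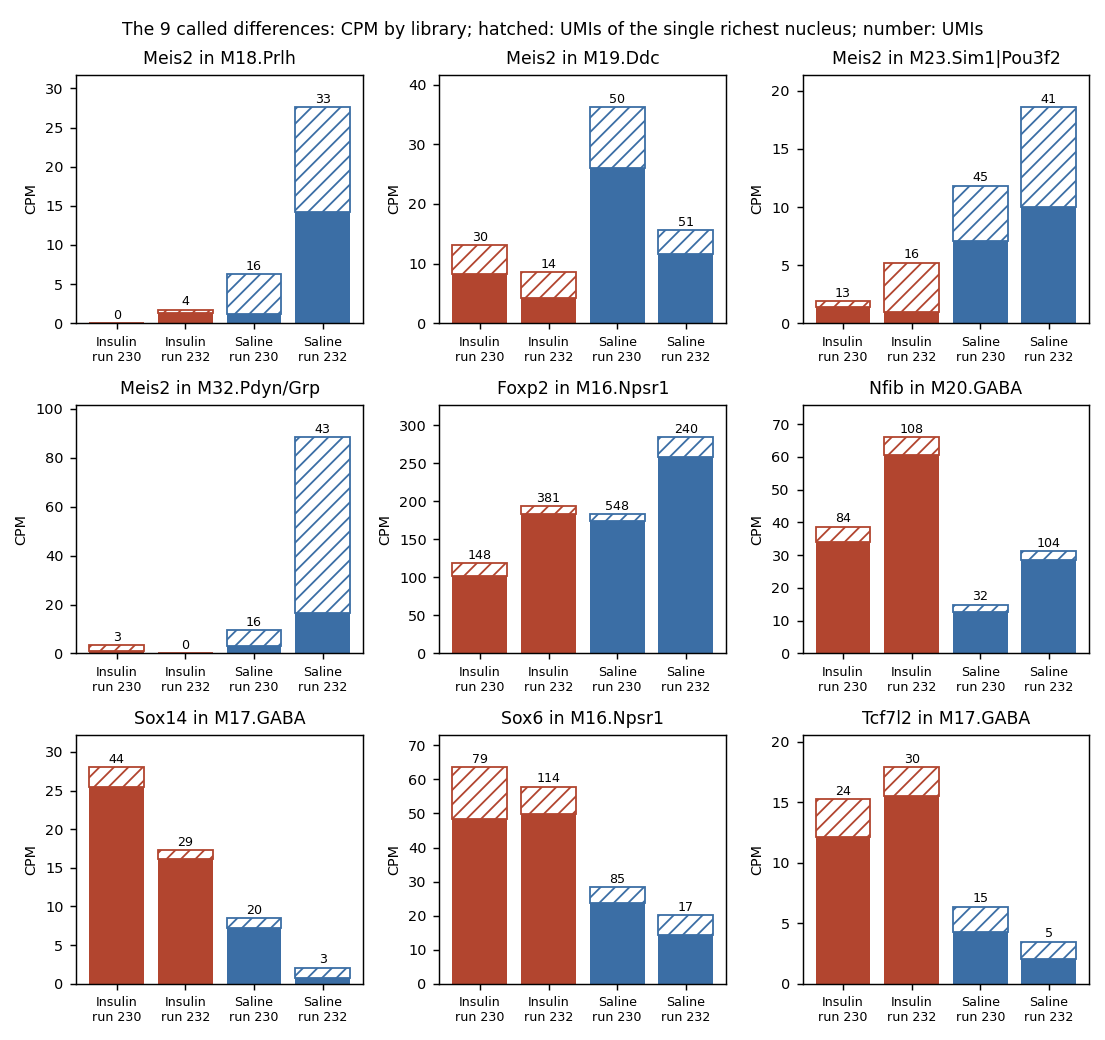
CPM by library for the 9 member tests called in a neuron population; red bars are Insulin and blue bars Saline libraries, the hatched part is the UMIs of the single richest nucleus, and the number above a bar is its UMI total. The hatched part is largest for Meis2 in M32.Pdyn/Grp (35 of 43 UMIs in the Saline library of run 232) and small for Foxp2, Nfib and Sox14.

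Without the richest nucleus of each library, Sox14 (edgeR adjusted p = 4.46e-05), Tcf7l2 (edgeR adjusted p = 0.0119) and Foxp2 (edgeR adjusted p = 0.0263) still passed. Sox6 (log2 1.26, edgeR adjusted p = 0.162), Nfib (log2 1.20, edgeR adjusted p = 0.0729), Meis2 in M19.Ddc (log2 -1.63, edgeR adjusted p = 0.071) and Meis2 in M23.Sim1|Pou3f2 (log2 -2.65, edgeR adjusted p = 0.148) no longer passed, with differences at least as large as with all nuclei. Meis2 in M18.Prlh and M32.Pdyn/Grp no longer passed the filter on low counts. Each of the 9 calls was also lost without at least 2 of the 4 libraries taken singly, in fits that drop the run block. Sox14 was at log2 3.43 without the Saline library of run 230 and 1.35 without that of run 232. Foxp2 was at -0.29 without the Insulin library of run 230 and also without the Saline library of run 232, and at -0.96 without the Insulin library of run 232. Nfib was at 0.73 without the Insulin library of run 232 and 0.75 without the Saline library of run 230, and Meis2 in M19.Ddc at -0.48 without the Saline library of run 230. These 4 differences moved by 1.5 times or more, as did those of Meis2 in M18.Prlh and M32.Pdyn/Grp, which rest on few UMIs. With the run block dropped, all these differences also take in the difference between runs, which cannot be told apart from the pull of a single library.

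A list of 60 other hypothalamic transcription factors was fitted beside the members. Of its 748 tests in the populations, 4 were called higher and 1 lower with Insulin. Rorb, a nuclear receptor linked to the clock, passed upward in M8.Nr5a1 (log2 0.61) and M19.Ddc (log2 1.09), and Lef1, a Wnt effector like Tcf7l2, in M17.GABA (log2 0.63, edgeR adjusted p = 0.02). Ebf1, a relative of Ebf3, passed upward in M20.GABA (log2 1.97). Among cell types, Pou3f1 was called higher in OPC (log2 1.16, edgeR adjusted p = 0.00138) and St18 lower in astrocytes (log2 -1.78, edgeR adjusted p = 0.044).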

How the data were processed

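Single-nucleus RNA was sequenced from 4 libraries. The authors deposited a matrix of UMI counts (31053 genes by 41156 barcodes) and a table of nuclei with library, cell type and neuron population. Cell Ranger and GRCm38 are named in the submitters' processing notes, and other steps are not given in the sources used here. Of 36534 annotated nuclei, 36523 had a matching barcode. The 423 doublets and 1116 unassigned nuclei of the annotation were left out, and 34984 were used.

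Counts were summed per library within cell types and populations (at least 10 nuclei in every library) and fitted over all genes that passed edgeR's low-count filter, with edgeR 4.0.16 in R 4.3.3 (quasi-likelihood test, run as a block, Benjamini-Hochberg adjusted p under 0.05). DESeq2 1.42.0 was an alternative. The group and run of each library came from the deposited table of nuclei. Same-run libraries deviated together (r = 0.68 over genes in neurons, 0.05 over the 55 members). The labels do not say whether the 2 libraries of a group are separate animals. Within each group only the run 232 library was female by Xist, so its libraries did not come from the same mouse. With 2 libraries per group, p-values measure the spread between libraries, which may be technical. On simulated neuron counts of 2-fold changes, the fit recovered 89.5% with the block and 0% without it, and for the population M26.Agrp 69% with the block and 0% without it. With the block it made 7 and 5 false calls. The simulation built in the run differences of each gene and a small fixed spread. The gain from the block was thus set in advance and is no support for using it. The simulation changed only well-counted genes. It cannot speak for calls that rest on few UMIs.

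Levels and figures used Python 3.11.15. Members were given by their leading population where it had at least 20 UMIs and is reported here. Values per library were given for called members, for the 4 with the smallest p in each direction in neurons and for neighbouring paralogs. The members and lists were chosen with earlier results of these data known. A few results whose items are not reported here were left out of the text and of the map of populations.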

Additional observations from a re-analysis of the deposited data

Results flagged for a closer look

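Barcodes of the matrix that the annotation does not list held signal from the members. In these 4633 barcodes the 55 members summed to 114916 UMIs, or 3093 CPM, against 2646 CPM in annotated neurons. They were used in no comparison.

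Sox14 had opposite signs in 2 populations. It was higher in both Insulin libraries of M17.GABA (log2 2.03), while in M28.Tac2 the log2 difference was -0.12 (SE 0.30). The difference between these populations was not tested.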

How the results depend on the processing

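In all nuclei and in the neuron interaction, 0 members were called under every alternative that was run. In neurons the count was 0, but 4 without the filter on low counts (Meis2, Ebf3, Irx5 and Emx2). Without that filter 160 of 26126 genes (0.612%) were called in neurons. Most counts under the other alternatives are given without the share of all genes, so no excess is read from them. In the 7 other cell types it was 0, but 1 without that filter and 0 to 3 when a library was left out. In the populations it was 9, but 0 without the replicate block, 0 with DESeq2, 12 with DESeq2 size factors in edgeR, 21 without the filter and 1 to 17 when a library was left out. Fits that leave out a library have no run block. All 9 kept their direction in every alternative that tested them, and 1, 1, 5 and 3 of them still passed without the Insulin library of run 230, the Insulin library of run 232, the Saline library of run 230 and the Saline library of run 232. The median r of neighbouring pairs was 0.90, and 0.79 as Spearman's. The number of leaders that stood apart was 15, and 16 to 19 without 1 library. The replicate numbers in the labels could not be tied to the deposited libraries, so the pairing came from the run, each with 1 library of either group. Each group has 2 libraries and the block leaves 1 residual degree of freedom, which limits every p-value, and the cause of these changes was not tested.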
